A study of Rattus norvegicus with 62 samples.

Results

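Galectins are small proteins that bind β-galactoside sugars on glycoproteins inside and outside the cell. The 6 genes described here are Lgals1, Lgals2, Lgals3, Lgals8 and Lgals9, which encode galectins, and Lgals3bp, which encodes a secreted glycoprotein that galectins bind. They were chosen by name, as every probe set whose single gene symbol is one of these 6, which gave 7 probe sets among the 20826 with 1 symbol, and 6 genes of 14217. Results of these same arrays were known when the genes were chosen, so the differences within a week that stood out among them are given as a description, without p-values. That they passed the limma fit described below is part of why the genes were chosen and supports nothing further. The p-values printed for other comparisons, among them those between the weeks, come from genes chosen in this way. They are a description too.

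The data came from livers of male Crj:CD(SD)IGS rats in a 2-stage carcinogenesis model, in which an initiator was given for 1 or 2 weeks, was withheld for 2 weeks, and was followed by phenobarbital (PB) at 500 ppm in drinking water, a promoter, for 6 weeks. Each of 31 animals gave a piece of liver at partial hepatectomy, 1 week into promotion (5w), and another at the end of the study (10w), so that 62 arrays made 14 groups of 4 or 5. The initiators were diethylnitrosamine at 3 mg per kg (DEN3/PB) or 30 mg per kg (DEN30/PB), thioacetamide at 45 mg per kg (TAA/PB), methapyrilene at 100 mg per kg (MP/PB) and acetaminophen at 1000 mg per kg (APAP/PB). Initiator here names the compound given in the first phase, whether or not it starts tumours, and initiated animals are those that received one. MC/PB animals received the initiator's vehicle, methylcellulose, and then phenobarbital, and MC/water animals received methylcellulose and then plain water. DEN3/PB, TAA/PB and MP/PB had 5 animals each and the other treatments had 4, and all 7 treatments shared the hepatectomy and the vehicle or initiator phase.

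Galectin-1 and galectin-2 are prototype galectins with a single sugar-binding domain, galectin-3 joins such a domain to a long flexible tail, and galectin-8 and galectin-9 carry a pair of different domains in tandem. In the liver, galectin-3 is known from Kupffer cells and bile duct cells and from liver tumours, galectin-1 from stromal cells, and galectin-9 as a ligand of the T cell receptor Tim-3. Lgals3bp, also called Mac-2 binding protein, is a protein of blood plasma, a glycosylated form of which is used in people as a serum marker of liver fibrosis. Phenobarbital promotes the growth of initiated hepatocytes in rat liver and acts through the nuclear receptor CAR.

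Values are MAS5 signals, a linear brightness scaled by the authors so that the trimmed mean of every array lay between 500.2 and 500.3. Differences are on the log2(signal + 25) scale, with the standard error of a limma fit over all genes, and a gene passed where its Benjamini-Hochberg adjusted p over all genes was under 0.05. Liver markers were high on all arrays, with Alb, the gene of albumin, between 39383 and 82817. All 7 probe sets passed the filter on low signals. Lgals2 had the lowest signals, reaching 100 on 51 of 62 arrays, while the other 6 probe sets did so on all 62. The tissue was whole liver, so fewer cells of a type and less RNA per cell cannot be told apart. Beyond the groups, the arrays fell into 2 sets of 30 and 32 along the first component of the deviations from group means, with 2 or 3 arrays of each group in each set. These sets were read from the data and are not named in the labels. They followed the replicate number, with replicates 1 and 3 of every group in the first set and replicates 2 and 4 in the second. Replicate 5 of a treatment lay in the same set in both weeks. Lgals3bp averaged 0.19 and Lgals9 0.19 log2 units higher in the first set than in the second, and the same difference lay between -0.12 and 0.02 for the other 4 genes. Values within the sets are given beside the results.

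Within a week, 3 of 84 gene and comparison pairs passed, where 0% to 2.26% of all genes passed in the 14 comparisons. Lgals3 was higher after phenobarbital alone at 10w, Lgals3bp was higher after the larger dose of diethylnitrosamine at 5w, and Lgals2 was higher after methapyrilene at 5w. Between the weeks, 6 of 42 pairs passed, of which 5 were higher Lgals3 at 10w and 1 was lower Lgals2, where 0% to 2.89% of all genes passed in the 7 treatments. Lgals1, Lgals8 and Lgals9 passed in none of their 27 limma comparisons each, where Lgals1 had 3 and Lgals8 and Lgals9 had 0 at an unadjusted p under 0.05. The Lgals8 counts are those of its brightest probe set. Its other probe set also passed in none, with a lowest adjusted p of 0.356 (limma), but had comparisons at an unadjusted p under 0.05. Counts at an unadjusted p under 0.05, here and below, are given without the share of all genes under it. They are a description.

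**Figure D1:**
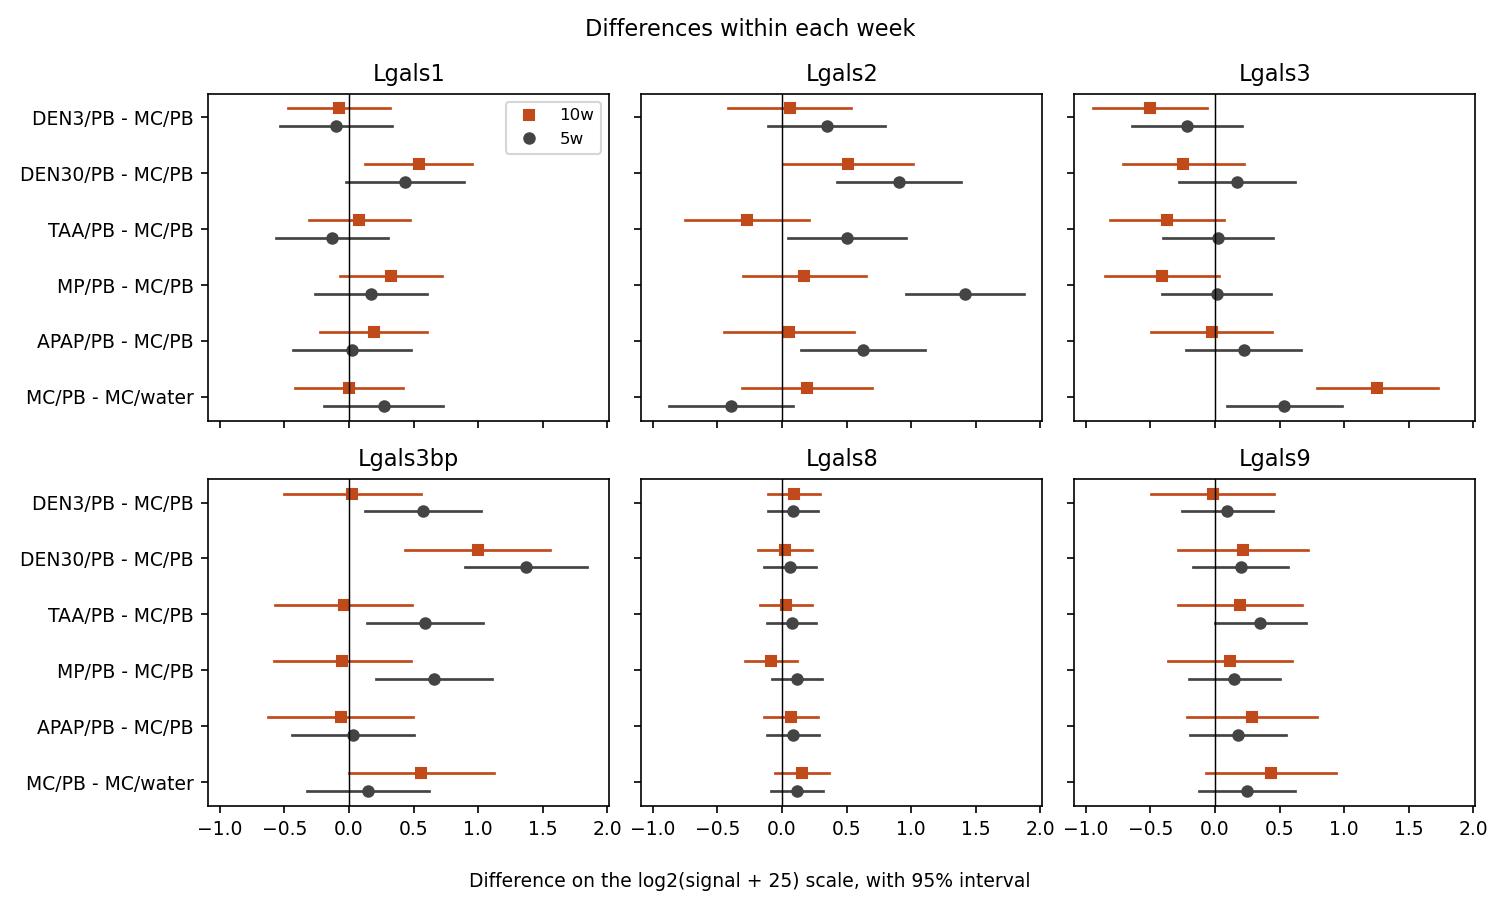
Difference of each gene in each comparison within a week, on the log2(signal + 25) scale, as points with 95% intervals from the limma fit. Squares are 10w and circles 5w; the 3 points that passed are Lgals3 for MC/PB at 10w (1.26), Lgals3bp for DEN30/PB at 5w (1.37) and Lgals2 for MP/PB at 5w (1.42), and Lgals8 shows the narrowest intervals.

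Lgals3, the gene of galectin-3, was higher in the livers of animals given phenobarbital alone than in those given water at the end of the study. At 10w its signals were 1904, 2382, 1966 and 2759 in MC/PB livers, against 949, 889.9, 919 and 913 in MC/water livers. The groups did not overlap, and the MC/water signals lay close together. The means were 2253 ± 399 in MC/PB and 918 ± 24.2 in MC/water (SD, n = 4 each), a difference of 1.26 ± 0.23 log2 units or 2.39-fold. In that comparison 2.26% of 10546 genes passed and 1.59% passed as higher. The difference was 1.03 within the first array set, where it did not pass, and 1.48 within the second.

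The 23 initiated animals, which also drank phenobarbital, had high Lgals3 at 10w as well. Their signals ran between 1110.3 and 2769, so that all 27 phenobarbital arrays of 10w lay above all 4 MC/water arrays, the highest of which was 949. Of the genes tested at 10w, 1.03% showed such a separation, and 5.05% had the MC/PB arrays alone above those of MC/water. The order of the log2 group means at 10w was MC/PB, APAP/PB, DEN30/PB, TAA/PB, MP/PB, DEN3/PB and MC/water, while the mean signal was higher in APAP/PB (2314) than in MC/PB. The step to MC/water was 0.75 log2 units, while each step between neighbouring phenobarbital groups was 0.22 or less and smaller than the spread within those groups. Against MC/PB, the initiated groups of 10w had Lgals3 differences between -0.51 ± 0.22 in DEN3/PB and -0.03 ± 0.23 in APAP/PB, none of which passed (adjusted p between 0.670 and 0.9996, limma), and the APAP/PB difference was 0.27 without APAP/PB replicate 1. The share of genes that passed against MC/PB at 10w was 0.0190% in DEN3/PB, 0.0284% in DEN30/PB, 0.00948% in TAA/PB, 0.0853% in MP/PB and 0.0664% in APAP/PB. In DEN3/PB all 5 signals, between 1398 and 1831, lay below the 4 of MC/PB, a separation that 0.645% of genes showed.

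At 5w, after 1 week of phenobarbital, the same comparison did not pass. Lgals3 signals were 1236, 653, 902 and 1193 in MC/PB livers, against 741, 490.4, 959 and 536 in MC/water livers. The groups overlapped, with a difference of 0.54 ± 0.22 (adjusted p = 0.316, limma). In that comparison 1.26% of genes passed. The difference between the effects of phenobarbital at 10w and at 5w was 0.72 ± 0.33, which did not pass; 0% of genes passed in this or any other difference between an effect at 10w and at 5w.

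Within animals, Lgals3 was higher at 10w than at 5w in all 27 animals given phenobarbital and in 3 of 4 animals given water. All 23 initiated animals are among the 27; of 10910 genes, 0.862% were higher at 10w in every initiated animal and 0.770% in every phenobarbital animal. The difference within animals, 10w over 5w, had a median of 0.94 log2 units over the 27, between 0.04 and 1.83. In MC/water the median was 0.54, between -0.06 and 0.83. In the DEN3/PB animals the signals were 1702, 1461, 1831, 1455 and 1398 at 10w, against 836, 749, 899, 919 and 746 at 5w. Every 10w signal of this treatment lay above every 5w signal, as 3.16% of genes did, and the difference within an animal lay between 0.65 and 1.01.

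**Figure D2:**
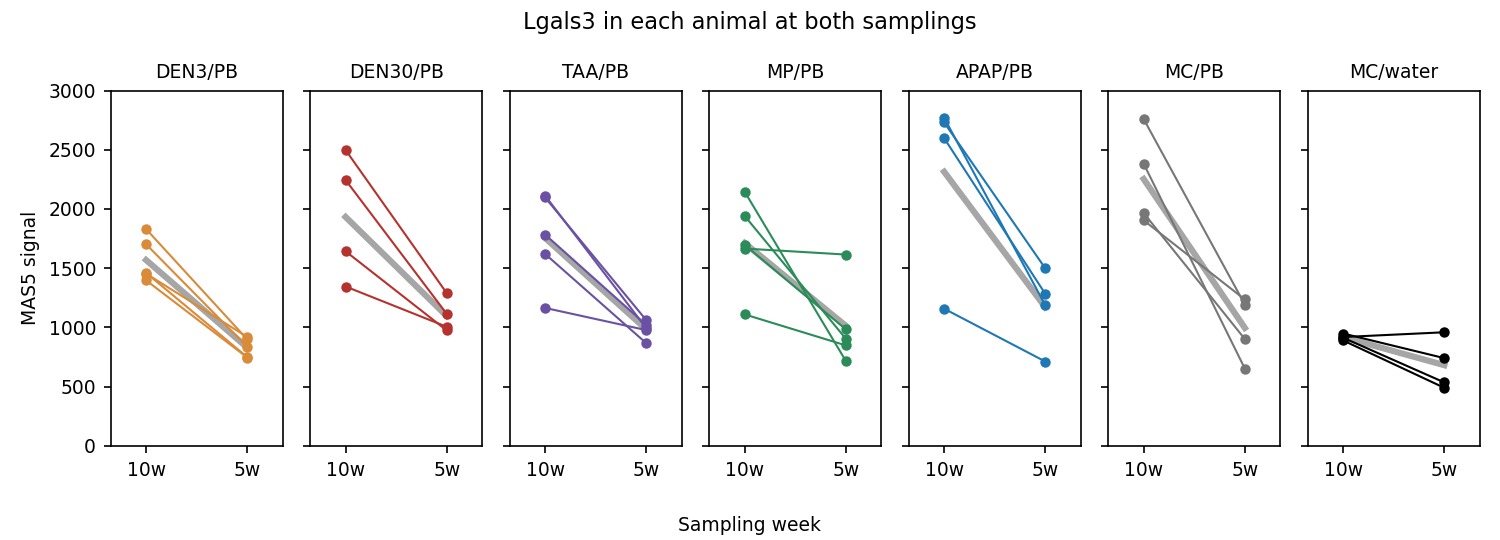
MAS5 signal of Lgals3 in each animal at 10w (left of each panel) and 5w (right), 1 panel per treatment. Each line joins the 2 samples of an animal and the thick grey line joins the group means; the 10w end lies above the 5w end in all 27 phenobarbital animals and in 3 of the 4 MC/water animals.

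In the limma fit of all 62 arrays, which does not pair the samples of an animal, Lgals3 rose between the weeks in 4 of the 5 initiated treatments. The rise was 0.90 ± 0.21 in DEN3/PB (adjusted p = 0.00686, limma), where 2.89% of 10910 genes passed and 1.71% rose, and 0.94 ± 0.23 in APAP/PB (adjusted p = 0.0196), where 1.47% passed and 0.972% rose. It was 0.79 ± 0.21 in TAA/PB (adjusted p = 0.0304, limma), where 1.77% of genes passed and 0.962% rose, and 0.76 ± 0.21 in MP/PB (adjusted p = 0.0441), where 1.34% passed and 0.651% rose. In DEN30/PB the difference was 0.77 ± 0.23 (adjusted p = 0.228, limma), in a treatment where 0% of genes passed. Its signals were 1643, 2497, 2244 and 1346 at 10w, against 975, 1289, 1114 and 1006 at 5w, without overlap, as for 2.30% of genes. TAA/PB did not overlap either, as for 1.46% of genes. With the animal as a block, which pairs the 2 samples of each rat, the DEN30/PB difference passed too (adjusted p = 0.0237, limma). Over all alternatives tried the adjusted p of DEN30/PB lay between 0.0237 and 0.996. The same block gave adjusted p of 0.000248 in DEN3/PB, 0.000983 in APAP/PB, 0.00186 in TAA/PB, 0.00298 in MP/PB and 0.277 in MC/water (limma). The share of all genes that passed with the block was not counted, and the shares given here are from the fit without it. In MC/PB the difference was 1.18 ± 0.23, from the same 10w arrays as the phenobarbital comparison above, in a treatment where 1.31% of genes passed, 0.852% rose and 3.92% were higher without overlap. In MC/water it was 0.46 ± 0.23 (adjusted p = 0.757, limma), where 0.0458% of genes passed. Hepatectomy, 5 further weeks of age and 5 further weeks of phenobarbital lie between the samples and cannot be told apart within the phenobarbital groups.

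In the fit without the animal block, single arrays decided the call in 3 of these treatments. The fit with the block was not repeated without single arrays. In TAA/PB the call held without 10w replicate 1 or without 5w replicate 2 and was lost without any other of the 10 arrays, at differences between 0.72 and 0.81 (adjusted p between 0.0519 and 0.0950, limma). In MP/PB it held without 10w replicate 1 or without 5w replicate 4 and was lost without any other, at differences between 0.66 and 0.77 (adjusted p between 0.0664 and 0.156, limma). In APAP/PB it was lost without 10w replicate 2, 3 or 4 or without 5w replicate 1, at differences between 0.72 and 0.85 (adjusted p between 0.0696 and 0.171, limma). In DEN3/PB it held without any 1 of the 10 arrays. With only the compared groups in the fit the calls in MP/PB and APAP/PB were lost, within the first array set all of them were, and within the second those in DEN3/PB, MP/PB and APAP/PB were.

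Other gene lists differed between the same weeks. The lists were chosen with earlier results of these arrays known, so p-values of their genes, here and below, are a description. Of 3 erythroid genes, Hbb, a globin gene, and Alas2, the first enzyme of heme synthesis in red cells, fell in DEN3/PB, TAA/PB and MP/PB, by 0.90 to 1.11 log2 units. The summed erythroid signal of DEN3/PB livers was 7265 to 14294 at 10w and 15037 to 31957 at 5w. Of 9 endothelial genes, 1 or 2 fell in DEN3/PB, TAA/PB, MP/PB, APAP/PB and MC/PB, among them Kdr, a receptor for vascular endothelial growth factor, in each of the 5, by 0.34 to 0.45. Of 9 genes of preneoplastic foci, 2 rose in DEN3/PB, 1 in TAA/PB and 1 in MC/PB. All 9 had a higher mean at 10w in every phenobarbital treatment but MP/PB, where 7 did, and 6 did in MC/water. Of 13 macrophage and Kupffer cell genes, Cd14 rose by 1.27 ± 0.23 in DEN3/PB (adjusted p = 0.000595, limma), the single call of that list between the weeks. The part of these genes and their cells in the Lgals3 difference was not tested.

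Markers of cells that are known to make galectin-3 were read on the same arrays. The summed signal of the 13 measured macrophage and Kupffer cell markers was 18913 to 24771 in MC/PB livers and 20546 to 27411 in MC/water livers at 10w, and 3 of the 13 had a higher mean in MC/PB. Of these, Cd14, a receptor for bacterial lipopolysaccharide, rose by 0.94 ± 0.26 (adjusted p = 0.0454, limma). Of the 6 tested markers of bile duct and progenitor cells, Epcam, a surface adhesion protein, rose by 1.26 ± 0.24 (adjusted p = 0.00247, limma), while 4 of the 6 had a lower mean, and Krt7, a defining keratin of bile duct cells, never reached a signal of 100. Krt19, another such keratin, differed by -0.27 ± 0.24. The summed signal of these 6 was 1956 to 2929 in MC/PB and 1524 to 2166 in MC/water. The part of these cells in the Lgals3 difference was not tested.

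Other gene lists gave further context for phenobarbital at 10w, beside a median of -0.01 over all 10546 genes. Of 9 tested genes known from preneoplastic liver foci, all had a higher mean in MC/PB and 2 rose. The 2 were Akr7a3, an aldo-keto reductase, by 2.29 ± 0.28 (adjusted p = 4.73e-06) and Nqo1, a quinone reductase, by 1.61 ± 0.26 (adjusted p = 0.000332, limma). MC/PB animals received no initiator, and whether their livers held foci was not tested. Of 15 stellate cell and fibroblast genes, Lox, the enzyme that cross-links collagen, fell by 3.29 ± 0.30 (adjusted p = 1.2e-08, limma). As the lists were chosen with earlier results known, these p-values are not independent tests. Of 20 glycoproteins known to bind galectins, 12 enzymes of N-glycan branching and capping and 9 genes of endosome damage and autophagy, 0 passed in limma, with 1, 2 and 2 of them at an unadjusted p under 0.05. Their median differences were -0.05, -0.10 and -0.06.

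The genes whose means over the 14 groups were most like those of Lgals3 were Pno1 (r = 0.980), Ywhag (0.965) and Cct6a (0.964). Over the 62 arrays, after group means were removed, their correlations with Lgals3 were 0.487, 0.283 and 0.341. Within groups the closest genes were Trit1 (0.663) and Ctnna1, the gene of alpha-catenin (0.656), and Epcam had 0.513. These are descriptions over points that share arrays and scaling.

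Lgals3bp, the galectin ligand, was high after diethylnitrosamine at 30 mg per kg. At 5w its signals were 1498, 1658, 1429 and 1543 in DEN30/PB livers, against 885, 547, 514 and 442 in MC/PB livers and 873, 344, 565 and 417 in MC/water livers. All 4 DEN30/PB arrays lay above every other array of the week, the highest of which was a TAA/PB liver at 1211. Of 10491 genes, 2 or 0.0191% had DEN30/PB above all other arrays at 5w in that way. The means were 1532 ± 96.1 in DEN30/PB and 597 ± 197 in MC/PB (SD, n = 4 each), a difference of 1.37 ± 0.23 or 2.58-fold. In that comparison 0.114% of genes passed and 0.0953% passed as higher. The difference was 1.09 and 1.65 within the 2 array sets and passed in neither, and without MC/PB replicate 4 it was 1.25 and did not pass.

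**Figure D3:**
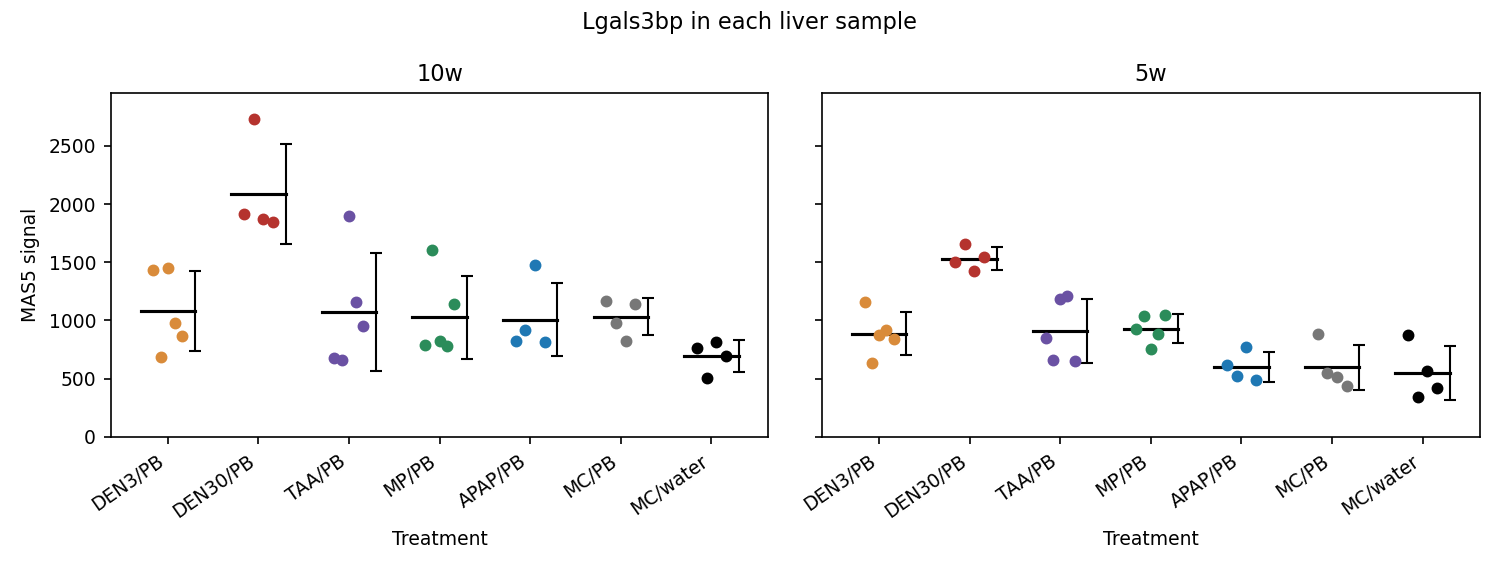
MAS5 signal of Lgals3bp in each liver at 10w (left) and 5w (right) by treatment. Points are arrays, horizontal lines are group means and bars are SD; the DEN30/PB arrays lie between 1843 and 2731 at 10w and between 1429 and 1658 at 5w.

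At 10w the DEN30/PB livers were high again. Their Lgals3bp signals were 1913, 2731, 1870.1 and 1843, against 1169.6, 981, 828 and 1143 in MC/PB livers. The groups did not overlap, as for 1.98% of genes. The means were 2089 ± 429 in DEN30/PB and 1030.3 ± 159 in MC/PB (SD, n = 4 each), a difference of 1.00 ± 0.27 or 1.99-fold that did not pass; 0.0284% of genes passed there. A TAA/PB liver at 1901 lay within the DEN30/PB range. Against the lower dose of the same compound, Lgals3bp differed by 0.97 ± 0.26 at 10w, where 0% of genes passed, and by 0.80 ± 0.22 at 5w, where 0.00953% passed, and neither value passed. The DEN3/PB signals ran between 688 and 1455 at 10w and between 637 and 1156 at 5w, so the doses did not overlap in either week. The higher dose lay above the lower without overlap for 0.797% of genes at 10w and 1.13% at 5w.

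The other initiators gave smaller differences of Lgals3bp at 5w, none of which passed. Against MC/PB they were 0.66 ± 0.22 in MP/PB (adjusted p = 0.361), 0.59 ± 0.22 in TAA/PB (adjusted p = 0.734), 0.57 ± 0.22 in DEN3/PB (adjusted p = 0.804) and 0.03 ± 0.23 in APAP/PB (adjusted p = 0.992), all from limma. The share of genes that passed was 0.0572% in MP/PB, 0.0191% in TAA/PB, 0.0381% in DEN3/PB and 0% in APAP/PB. At 10w these 4 differences lay between -0.06 and 0.03. The order of log2 means at 5w was DEN30/PB, MP/PB, TAA/PB, DEN3/PB, APAP/PB, MC/PB and MC/water, with a step of 0.71 log2 units below DEN30/PB and of 0.54 below DEN3/PB. Each of the other steps was 0.15 or less, within the spread of the groups.

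Between the weeks, Lgals3bp differed most in MC/PB and APAP/PB. It was higher at 10w in all 4 MC/PB animals, by 0.80 ± 0.26 (adjusted p = 0.137, limma), and in all 4 APAP/PB animals, by 0.70 ± 0.26 (adjusted p = 0.183, limma). With the animal as a block both passed (adjusted p = 0.0122 in MC/PB and 0.0268 in APAP/PB, limma). Over all alternatives the adjusted p from limma lay between 0.0122 and 0.893 in MC/PB and between 0.0268 and 0.736 in APAP/PB. The 5w MC/PB arrays are those of the DEN30/PB difference above, so the MC/PB p-values are no independent test. The share of all genes that passed with the block was not counted. In the other 5 treatments the differences lay between 0.09 and 0.42, and 22 of 27 phenobarbital animals had a higher signal at 10w. After phenobarbital alone, Lgals3bp differed from water by 0.56 ± 0.27 at 10w (adjusted p = 0.358, limma), with the 4 MC/PB signals above the 4 of MC/water, as for 5.05% of genes. In that comparison 0 of 19 interferon response genes passed in limma, with 2 at an unadjusted p under 0.05 and a median of 0.30, and 14 of the 19 had a higher mean in MC/PB.

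Genes of preneoplastic foci stood beside Lgals3bp in DEN30/PB. Their p-values, and those of the stellate cell genes, come from lists chosen with earlier results known and are not independent tests. Gstp1, a glutathione transferase and the standard marker of rat liver foci, rose by 2.65 ± 0.41 at 10w (adjusted p = 0.00498) and by 1.58 ± 0.30 at 5w (adjusted p = 0.0170, limma) against MC/PB, and Ggt1, another focus enzyme named after its values were seen, rose by 1.65 ± 0.31 at 10w (adjusted p = 0.0460, limma). These were the 2 of 9 focus genes that passed at 10w, where 6 of the 9 had a higher mean and the median difference was 0.07, beside 0.02 over all genes. At 5w 1 of 9 passed and all 9 had a higher mean, with a median of 0.50. At 5w Lox rose by 2.07 ± 0.31 (adjusted p = 0.00156) and Cygb, a globin of stellate cells, by 0.73 ± 0.15 (adjusted p = 0.0357, limma), the 2 of 16 stellate cell and fibroblast genes that passed. The summed signal of those 16 genes was 14017 to 18249 in DEN30/PB and 10021 to 18115 in MC/PB at 5w. None of 13 macrophage genes and none of 19 interferon response genes passed in limma at 5w, with 1 and 0 at an unadjusted p under 0.05. The interferon list had a median difference of 0.06 at 10w and 0.23 at 5w, beside 0.02 and 0.01 over all genes. At 10w the 6 bile duct and progenitor genes summed to 2331 to 4487 in DEN30/PB and 1956 to 2929 in MC/PB, with 0 passing in limma, 5 at an unadjusted p under 0.05 and a median difference of 0.64. The part of other cell types in the Lgals3bp difference was not tested.

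Lgals9, the gene of galectin-9, passed in no comparison between groups. Between the weeks it differed by 0.06 to 0.36 in the 7 treatments. Its differences within a week lay between -0.02 and 0.43, the largest being MC/PB against MC/water at 10w (0.43 ± 0.25, adjusted p = 0.458, limma). There the signals were 3752, 2053, 2633 and 3102 in MC/PB livers, against 2712, 1506, 2393 and 1920.3 in MC/water livers, and the groups overlapped. Without MC/water replicate 2 the difference was 0.28. Single livers stood out more than groups did: a TAA/PB liver at 10w reached 5847 and an MP/PB liver 4701, while the rest of those 2 groups lay between 2043 and 3489.

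The same livers were high in Lgals3bp. The TAA/PB animal with 5847 for Lgals9 had 1901 for Lgals3bp, where the other 4 of its group had 664 to 1162. The MP/PB animal with 4701 had 1602, where the other 4 had 782 to 1139. Over all 62 arrays, after the group means were removed, the deviations of Lgals3bp and Lgals9 correlated with r = 0.783 (Spearman's rho 0.726). The correlation was 0.843 over the 31 arrays of 10w and 0.688 over the 31 of 5w, 0.799 and 0.714 within the 2 array sets, and 0.732 without the 2 arrays farthest from the median of Lgals3bp. Among the other 14 pairs of the 6 genes, r lay between -0.05 and 0.31. These ranks within groups were examined after the values had been seen, and the points share arrays, scaling and animals.

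**Figure D4:**
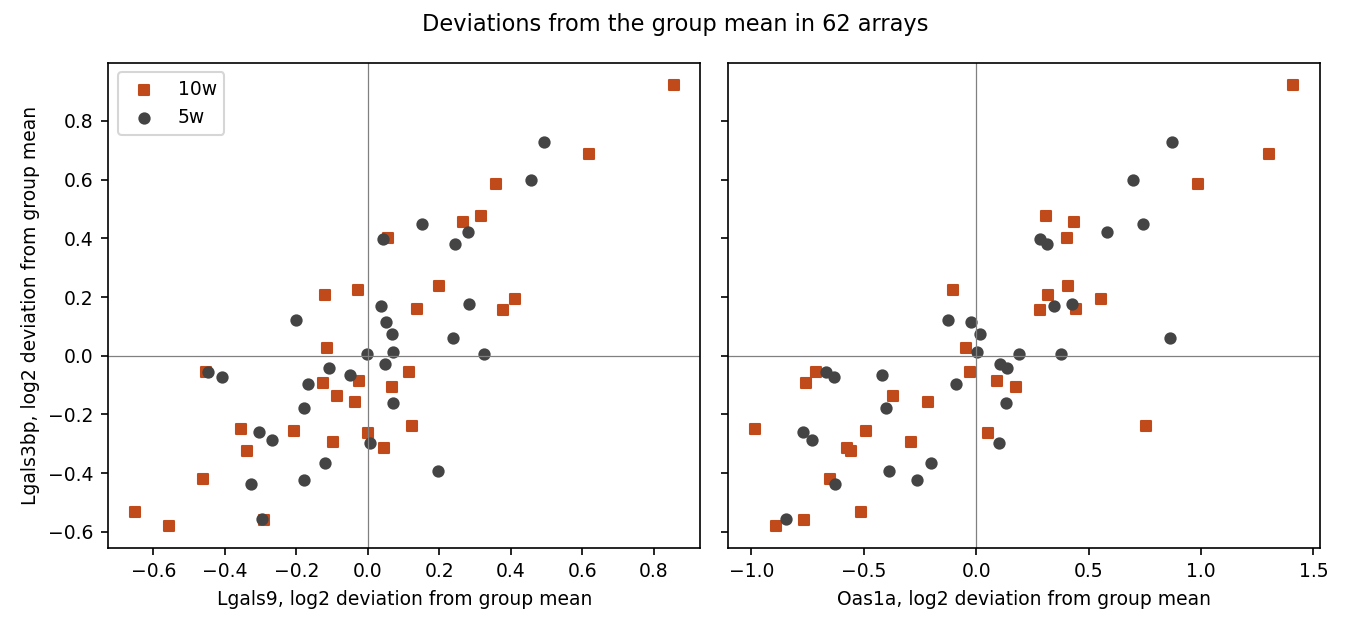
Deviation of Lgals3bp from its group mean on each of 62 arrays (vertical axis, log2) against that of Lgals9 (left) and of Oas1a (right). Squares are 10w and circles 5w arrays; r is 0.783 for Lgals9 and 0.817 for Oas1a.

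The genes closest to both within groups belong to the response to interferon. For Lgals9 the highest correlations over all genes were with Oas1a, an antiviral oligoadenylate synthetase (r = 0.870), Usp18, a protease that removes Isg15 (0.834), and Irf7, a transcription factor of the type I interferon response (0.824). For Lgals3bp the highest was also Oas1a (0.817), followed by Lgals9, Usp18 (0.776), Ly6e (0.764) and Irf7 (0.763). Of 19 interferon response genes on the array, 11 had r above 0.5 with Lgals3bp and 11 with Lgals9, while 0 of the 19 did so with Lgals1, Lgals2, Lgals3 or Lgals8. Over the other 10909 genes, 0.788% had r above 0.5 with Lgals3bp and 0.504% with Lgals9. The median r over the 19 was 0.532 for Lgals3bp and 0.592 for Lgals9. It lay between -0.09 and 0.09 for the other 4 genes. Bst2 and Ifit1 were members of the list with little correlation, at -0.02 and 0.12 with Lgals3bp.

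The promoters of the 4 genes found in the RefSeq table (build GRCr8) were searched because Lgals3bp and Lgals9 varied together. The windows were the 250 bases before each start, and 6 motifs were searched on both strands: the core of the interferon-stimulated response element (GAAA, any 2 bases, GAAA), the STAT palindrome TTCNNNGAA, the AP-1 motif TGANTCA, the antioxidant response element core TGACNNNGC, the GC box GGGCGG and the TATA box TATAAA. Capitals mark the matches, those on the opposite strand as their reverse complement, in the sequences, which are shown for the pair that covaried and for Lgals8 as a member that did not. They are at chr10:104127849-104128098 on the minus strand for Lgals3bp, at chr10:64428071-64428320 on the minus strand for Lgals9 and at chr17:62719603-62719852 on the plus strand for Lgals8.
Lgals3bp: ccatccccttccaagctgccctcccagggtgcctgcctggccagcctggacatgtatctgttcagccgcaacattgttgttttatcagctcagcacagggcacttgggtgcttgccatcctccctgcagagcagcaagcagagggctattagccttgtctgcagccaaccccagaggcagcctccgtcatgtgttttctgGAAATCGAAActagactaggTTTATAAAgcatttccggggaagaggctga
Lgals9: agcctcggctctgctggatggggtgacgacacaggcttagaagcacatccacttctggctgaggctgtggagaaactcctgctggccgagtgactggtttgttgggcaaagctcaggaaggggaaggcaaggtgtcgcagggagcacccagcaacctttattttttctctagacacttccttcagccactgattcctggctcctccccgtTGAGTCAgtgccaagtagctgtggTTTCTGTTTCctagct
Lgals8: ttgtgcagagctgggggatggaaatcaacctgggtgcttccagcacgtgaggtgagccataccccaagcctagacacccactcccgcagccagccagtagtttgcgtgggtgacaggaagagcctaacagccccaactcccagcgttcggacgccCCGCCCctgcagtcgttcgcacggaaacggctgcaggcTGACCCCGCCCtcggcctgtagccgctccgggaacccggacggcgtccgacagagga
The interferon element core was present once in Lgals3bp, 50 to 41 bases before the start, and once in Lgals9, 16 to 7 bases before the start on the opposite strand. It was in neither Lgals8 nor Lgals2, whose window held none of the 6 motifs. Of 33469 rat promoter windows of this length, 3.41% held it. Among the interferon response genes with a window in the table, 8 of 14 held it, Oas1a and Irf7 among them. Lgals3bp also held TATAAA on both strands in 2 overlapping matches (in 12.9% of windows) and Lgals9 held TGAGTCA, an AP-1 match (6.34%). Lgals8 held 2 GC boxes (30.5%), 1 of which overlaps a match to the antioxidant response element core (10.1%). A match is a run of letters and was not shown to be bound.

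Over the 14 group means, which are a different measure from the deviations within groups, the genes most like Lgals3bp were Pkia (r = 0.932), F2r (0.912) and Ugt2b7 (0.895). Those most like Lgals9 were Tmem184c (0.949), Gda (0.945) and Atp5if1 (0.943). Within groups these 6 genes had r between -0.19 and 0.35 with their partner.

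Lgals2, the gene of galectin-2, which is known from gut epithelium in mouse and human, was high after methapyrilene at the first sampling. At 5w its signals were 380.3, 208, 217, 389.8 and 328 in MP/PB livers, against 141, 131, 50.5 and 80.4 in MC/PB livers and 165, 94.6, 147 and 130.2 in MC/water livers. The 5 MP/PB arrays lay above all arrays of MC/PB and MC/water, 1.39% of genes separated from MC/PB in this way, and 2 of the 4 MC/PB arrays were under 100. The lowest MP/PB arrays overlapped those of DEN30/PB, TAA/PB and APAP/PB. The means were 305 ± 87.3 in MP/PB (SD, n = 5) and 101 ± 42.6 in MC/PB (SD, n = 4), a difference of 1.42 ± 0.22 or 2.67-fold. In that comparison 0.0572% of genes passed and 0.0381% passed as higher. It passed neither within the 2 array sets, at 1.49 and 1.34, nor with only the compared groups in the fit, nor without MC/PB replicate 3, the array at 50.5, where it was 1.20.

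**Figure D5:**
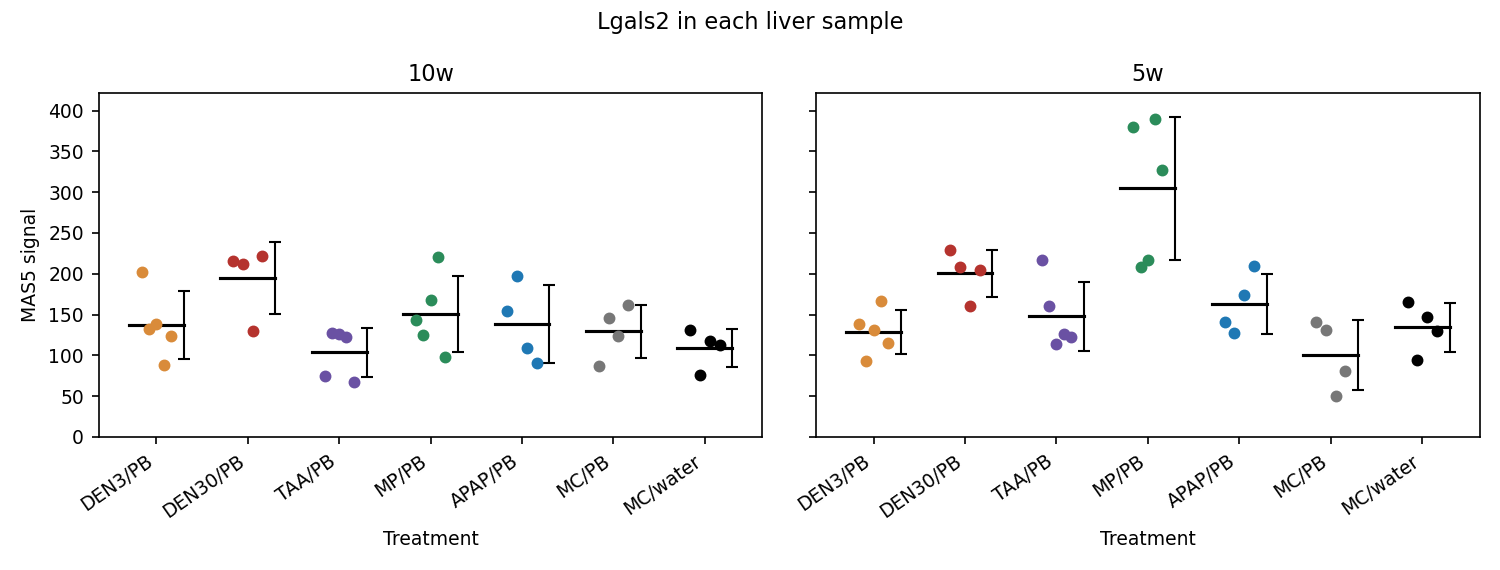
MAS5 signal of Lgals2 in each liver at 10w (left) and 5w (right) by treatment, with arrays as points, group means as horizontal lines and SD as bars. The MP/PB livers lie between 98.1 and 220.5 at 10w and between 208 and 389.8 at 5w.

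At 10w the MP/PB livers overlapped the MC/PB livers. Their Lgals2 signals were 143, 124, 168, 220.5 and 98.1, against 87.1, 146, 123 and 161 in MC/PB livers. The difference was 0.17 ± 0.23 (adjusted p = 0.898, limma), where 0.0853% of genes passed, and it ran between 0.03 and 0.29 when single arrays were left out. Within animals Lgals2 was lower at 10w than at 5w in 5 of 5, by 0.90 ± 0.22 log2 units on average. In that comparison 1.34% of genes passed and 0.687% passed as lower; the 5w arrays are those of the methapyrilene difference. Without 10w replicate 2 or 5, or without 5w replicate 1, 4 or 5, the fall lay between 0.78 and 0.87 on the log2 scale and did not pass, nor did it within either array set or with only the compared groups. The difference between the methapyrilene effects at 10w and at 5w was -1.24 ± 0.33, which did not pass. Among the other treatments, Lgals2 was higher at 10w in 0 of 4 MC/water animals, with differences between -0.28 and -0.18. It was higher in 1 of 5 TAA/PB, 2 of 4 DEN30/PB, 2 of 4 APAP/PB, 3 of 4 MC/PB and 4 of 5 DEN3/PB animals. The share of all genes lower at 10w in every MP/PB animal was not counted.

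DEN30/PB also had high Lgals2 at both samplings, without passing. At 5w its signals were 229.7, 208, 161 and 204, all above the 4 of MC/PB, a separation that 2.20% of genes showed, and the difference was 0.91 ± 0.23 (adjusted p = 0.199, limma). At 10w they were 216, 212, 129 and 222, with a difference of 0.51 ± 0.25 (adjusted p = 0.955, limma). The remaining differences at 5w were 0.63 ± 0.23 in APAP/PB (adjusted p = 0.525), 0.50 ± 0.22 in TAA/PB (adjusted p = 0.866) and 0.35 ± 0.22 in DEN3/PB (adjusted p = 0.999), all from limma. All initiated groups therefore had higher means than MC/PB at 5w, where MC/PB had the lowest mean of the 7 groups and differed from MC/water by -0.39 ± 0.23 (adjusted p = 0.602, limma). That order leans on MC/PB replicate 3: without it the differences were 0.41 in APAP/PB, 0.28 in TAA/PB and 0.12 in DEN3/PB, and -0.17 for MC/PB against MC/water. The order of log2 means at 5w was MP/PB, DEN30/PB, APAP/PB, TAA/PB, MC/water, DEN3/PB and MC/PB, with a step of 0.51 log2 units below MP/PB.

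Bile duct and progenitor markers had higher means in the same MP/PB livers, without passing. The summed signal of 6 such genes was 2715 to 3282 in MP/PB livers at 5w, against 1879 to 2326 in MC/PB livers, and all 6 had a higher mean, with a median difference of 0.47 against 0.01 over all genes. None of the 6 passed in limma, and 4 of them had an unadjusted p under 0.05. Epcam differed by 0.52 ± 0.14, Cd24 by 0.59 ± 0.23 and Krt19 by 0.70 ± 0.30. Their part in the Lgals2 difference was not tested. The genes most like Lgals2 over the 14 group means were Bex4 (r = 0.969), Pkd2 (0.859) and Vps45 (0.858). Within groups their r with Lgals2 was 0.240, 0.098 and 0.112, and the highest r of any gene within groups was that of Vim, a filament protein of mesenchymal cells (0.508).

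Lgals1, the gene of galectin-1, lies near Lgals2 on rat chromosome 7, with 3 protein-coding genes between them. Its means were highest in DEN30/PB in both weeks, and the differences did not pass. At 10w its signals were 268, 315, 243 and 457 in DEN30/PB livers, against 180.0, 175, 219 and 264 in MC/PB livers. At 5w they were 317, 342, 257 and 393 in DEN30/PB livers, against 261, 277, 178 and 228 in MC/PB livers. The groups overlapped in both weeks. The differences were 0.54 ± 0.20 at 10w (adjusted p = 0.849, limma) and 0.43 ± 0.22 at 5w (adjusted p = 0.902, limma), with 95% intervals of 0.12 to 0.95 and -0.02 to 0.89. Against DEN3/PB they were 0.62 ± 0.19 at 10w (adjusted p = 0.763) and 0.54 ± 0.21 at 5w (adjusted p = 0.820, limma). Between the weeks Lgals1 differed by -0.15 to 0.11 in the 7 treatments.

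Within groups the highest correlations of Lgals1 over all genes and 62 arrays were with Col4a1, a basement membrane collagen (r = 0.630), Timp1, an inhibitor of matrix metalloproteinases (0.607), and Vim (0.584). Of 16 stellate cell and fibroblast genes, 4 had r above 0.5 with Lgals1, 1 with Lgals2 and 0 with the other 4 members, while 0.183% of the other 10909 genes did so with Lgals1. For Col4a1 r was 0.510 over the arrays of 10w and 0.737 over those of 5w, and 0.562 without the 2 arrays farthest from the median of Lgals1. Over the 14 group means Lgals1 was most like Hip1 (r = 0.900), S100a11 (0.891) and Lin52 (0.837), with 0.254, 0.411 and 0.002 within groups.

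Lgals8, the gene of galectin-8, which is known to mark damaged endosomes for autophagy, was the most even of the 6. Its main probe set ran between 3148 and 5678 over the 62 arrays. Its differences within a week lay between -0.09 and 0.16, with standard errors of 0.09 to 0.10. The largest was MC/PB against MC/water at 10w, at 0.16 ± 0.10 with a 95% interval of -0.05 to 0.37 (adjusted p = 0.537, limma), and it was 0.10 without MC/water replicate 1. A second Lgals8 probe set ran between 1900.4 and 3843 and gave 0.21 in that comparison. The 2 probe sets differed most in APAP/PB at 5w, at 0.31 for the second (adjusted p = 0.431, limma) and 0.09 for the first. There the second lay above MC/PB without overlap, as for 1.67% of genes, with an unadjusted p of 0.0033 (limma). Its unadjusted p was 0.0484 in MP/PB at 5w and 0.0466 in DEN3/PB between the weeks (limma). Between the weeks Lgals8 was higher at 10w in 22 of 27 phenobarbital animals, by 0.11 log2 units at the median, and no treatment passed. Within groups its closest genes were Gclm, a subunit of the enzyme that starts glutathione synthesis (r = 0.662), Ugdh, which makes UDP-glucuronate (0.656), and Akr7a3 (0.638). For Gclm r was 0.843 and 0.481 within the 2 array sets. Over the group means Lgals8 was most like Ubl3 (0.952), Bsg (0.950) and Sec22b (0.948).

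Lgals9 lies next to Lgals5 on rat chromosome 10, and the genes are close in sequence. A probe set annotated to both ran between 1119.7 and 3799 and was left out by the rule on single symbols. Whether the Lgals9 probe set also reads Lgals5 was not tested. Of the other galectins, Lgals4, Lgals7, Lgals12 and Grifin never reached a signal of 100, the highest being 93.0. The brightest probe set of Lgalsl, a galectin-like gene, ran between 1068 and 2087. It passed in 0 of 27 limma comparisons, with 6 at an unadjusted p under 0.05. A second Lgalsl probe set ran between 207.6 and 548.9 and was left out of these counts.

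Across the 6 genes the doses of diethylnitrosamine, 30 against 3 mg per kg, gave 0 of 12 differences that passed in limma, with 5 at an unadjusted p under 0.05. The 36 differences between an effect at 10w and the same effect at 5w gave 0 that passed and 4 at an unadjusted p under 0.05. The shares of all genes at that unadjusted threshold are not given, so these counts are a description. The median difference over the 6 genes in DEN30/PB against MC/PB was 0.36 at 10w and 0.32 at 5w. The genes were chosen with results of these arrays known, so the median describes them and is no test of a shared effect. Of the 6 only Lgals3bp passed, at 5w, and Lgals8 differed by 0.03 at 10w and 0.07 at 5w. These comparisons share the MC/PB arrays of their week. The labels make each array a separate liver sample of a separate animal within a group, so the errors hold the spread between animals.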

How the data were processed

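Liver RNA of 62 samples from 31 rats was measured on 1 array each, and the authors deposited 1 MAS5 signal per probe set, an intensity on a linear scale made with MAS5 5.0 per the submitters' processing notes. Symbols came from GEO's platform annotation. In R 4.3.3, 25 was added before log2, genes with a signal of 100 or more on at least 4 arrays of a fit were kept with their brightest probe set, and limma 3.58.1 (trended eBayes) was fitted across all genes, 10491 at 5w, 10546 at 10w and 10910 for both weeks, with Benjamini-Hochberg adjustment. The steps were tested on simulated data.

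The 6 genes, the gene lists and the tests were chosen with earlier results of these data known. All 6 were tested in every comparison, and some differences that did not pass are given as ranges or left out. From each list, counts and up to 4 genes of smallest p are given, and the 3 genes most like each member over the 14 group means. The samples of 10w and 5w were paired by the treatment and replicate number in their labels, read as 1 animal. Their deviations from group means correlated by 0.210 to 0.392 in all 31 pairs. Samples of the same treatment and number also shared an array set in both weeks, so this correlation cannot test the pairing. Alternatives changed the offset, the filter, the scaling, the probe set, the trend and the arrays used, or added blocks. For arrays, precision is limited by the number of samples. Promoter windows came from RefSeq (GRCr8); Lgals1 and Lgals3 are not shown.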

Additional observations from a re-analysis of the deposited data

Results flagged for a closer look

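In 6 of 84 sets of replicates, 1 gene in 1 group, a single liver stood apart from the rest of its group by Dixon's criterion, where chance gives about 1 in 20. Lgals3 was 1158 in 10w APAP/PB replicate 1, while the other 3 livers had 2598 to 2769. The same animal had the lowest Lgals3 signal of its group at 5w, 712 against 1188 to 1498. Lgals3bp was 2731 in 10w DEN30/PB replicate 2, while the others had 1843 to 1913. Lgals2 was 129 in 10w DEN30/PB replicate 3, while the others had 212 to 222. Lgals9 was 2422 in 5w DEN30/PB replicate 3, while the others had 2816 to 2863. Lgals8 was 5123 in 10w MC/PB replicate 2, against 4586 to 4666 in the others, and 5278 in 10w MP/PB replicate 2, against 4179 to 4429 in the others.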

How the results depend on the processing

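Within at least 1 of the array sets, 53 of the 162 differences of the 6 genes had the other sign, the largest being 0.41 with all arrays, and 0 of the 53 had passed. Among the differences described singly and rerun under each alternative, direction turned for 3 that had not passed. Lgals2 in MP/PB at 10w was -0.11 within the second array set. Lgals3 in APAP/PB at 10w was 0.0646 within that set, and between -0.139 and 0.274 without 1 replicate, the highest without APAP/PB replicate 1. Lgals3bp in APAP/PB at 5w lay between -0.0922 and 0.233 without 1 replicate. The 6 calls between the weeks numbered 0 within the first array set, 2 within the second and 3 with only the compared groups in the fit. With the replicate block (the animal, between the weeks) there were 9, the added calls being Lgals3 in DEN30/PB and Lgals3bp in MC/PB and APAP/PB. The share of all genes that passed with that block was not counted, so the 9 calls have no share beside them. The 2 initiator calls numbered 0 within each array set and 1 with only the compared groups. The phenobarbital call was lost within the first set, giving 0. The sets hold 2 or 3 arrays of each group, so these fits have fewer samples. Leaving out 1 replicate gave 4 to 6 calls between the weeks, 1 to 2 for the initiators (1 without 5w MC/PB replicate 3 or 4), 1 for phenobarbital, and 0 for the doses of diethylnitrosamine and for differences of effects. With only the compared groups, the adjusted p from limma was 0.162 for Lgals3 in MP/PB and 0.214 in APAP/PB between the weeks, 0.108 for Lgals2 in MP/PB at 5w and 0.101 for Lgals2 in MP/PB between the weeks. For Lgals3 in MP/PB it was also 0.0557 with no filter, 0.0532 with all probe sets and 0.0544 without the variance trend. Within a week the replicate number as a block changed no call; same-numbered samples all correlated above 0.1 in 4 of 14 comparisons, with r between 0.0263 and 0.241 over all pairs. Low signals limit Lgals2, under 100 on 11 of 62 arrays.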
